A study of Rattus norvegicus with 15 samples.

Results

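The genes described here are the apolipoproteins Apoa1, Apoa2, Apoa4, Apoa5, Apob, Apoc1, Apoc2, Apoc3 and Apoe together with Mttp, chosen by name as rows of a table of read counts per gene from rat liver. Of these 10 genes, 9 were analysed among the 32623 genes of the table, and Apoc1 was not analysed here. All 9 passed the filter on low counts that left 14417 genes for testing. The question asked of them was whether liver cirrhosis, and the mineralocorticoid receptor antagonist eplerenone given during cirrhosis, changed the RNA of the genes that build lipoproteins.

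The liver packs triglyceride and cholesterol into very low density lipoproteins (VLDL), whose backbone is 1 molecule of apolipoprotein B that is loaded with lipid by the microsomal triglyceride transfer protein Mttp. Apolipoproteins A-I and A-II form high density lipoproteins (HDL), while the smaller C apolipoproteins and apolipoprotein A-V ride on both kinds of particle and steer how fast lipoprotein lipase breaks them down. Apolipoprotein E is the ligand by which receptors take remnant particles back into cells, and it is also made by macrophages.

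All groups were age-matched male Wistar rats, for which the labels name no genetic change, with an initial weight of 75 to 100 g. The age itself is not given in the sources used here. The control group (n = 4) was not treated. The cirrhosis group (n = 5) inhaled carbon tetrachloride (CCl4), a hepatocyte toxin, for 12 weeks and drank water with 0.35 g/L of phenobarbital, so that effects of CCl4 and of phenobarbital cannot be told apart. The cirrhosis & eplerenone group (n = 5) had the same exposure and in addition 100 mg of eplerenone per kg body weight by mouth in hazelnut spread, beginning after week 8. Whether the other rats ate the spread is not stated in the sources used here. The interval between the end of CCl4 exposure and liver sampling was 7 to 10 days. The study sequenced rats picked from a larger cohort for a successful induction of cirrhosis or treatment, which limits how far the groups stand for all treated rats. The values of control replicate 1 are not used here.

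Each library had between 16157491 and 21574767 counted reads, so that 3 counts corresponded to 0.121 to 0.191 FPM, which are counts per 1000000 reads of a library size scaled by TMM. The scaling factors lay at 0.847 to 0.877 for control, 0.968 to 1.21 for cirrhosis and 0.925 to 1.40 for cirrhosis & eplerenone. Hepatocyte markers were abundant in every library, with a summed level of 191409 to 222314 FPM over 9 genes in control, of 150238 to 208673 FPM in the cirrhosis group and of 117379 to 210163 FPM in cirrhosis & eplerenone. None of the 9 was a differentially expressed gene (DEG, a false discovery rate below 0.05 in both edgeR and DESeq2) in cirrhosis against control, as were 20.1% of all genes. By edgeR 3 had an unadjusted p below 0.05, beside 37.1% of all genes, and DESeq2 called 3, beside 27.8%. All 7 cholangiocyte markers were DEG, with a summed level of 14.8 to 24.5 FPM in control that reached 47.8 to 148 FPM in cirrhosis and 47.9 to 102 FPM with eplerenone. Of 9 stellate cell markers 6 were DEG and higher in cirrhosis, with sums of 152 to 248 FPM in control, 277 to 560 FPM in cirrhosis and 410 to 567 FPM with eplerenone. Beside both lists, 13.4% of all genes were DEG and higher in cirrhosis. In whole liver RNA, fewer cells of a type and less RNA per cell cannot be told apart, and the part of these shifts in the results that follow was not tested. The number in the animal labels starts with 13 or 16 in control and with 15 or 20 in both cirrhosis groups. What this label prefix stands for is not stated in the sources used here, and against control it cannot be told apart from CCl4.

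The 9 genes lie on 5 chromosomes in the deposited table (1, 2, 6, 8 and 13). In the RefSeq annotation of rat (GRCr8), Apoa1, Apoc3, Apoa4 and Apoa5 follow each other on chromosome 8 with no other protein coding gene between them, and so do Apoc2, Apoc4, Apoc1 and Apoe on chromosome 1. RefSeq promoter windows, from 250 bases before to 50 bases after an annotated start, matched 4 of the 9 genes: Apoa4, Apoa5, Apoc2 and Apoe. The windows of Apoa4 and of its neighbour Apoa5, at chr8:55435529-55435828 and chr8:55457621-55457920 on the plus strand of GRCr8, are shown because Apoa4 was the 1 DEG among the 9 genes and Apoa5, the next gene in the cluster, did not pass the test. The window of Apoc2 at chr1:88462316-88462615 on the minus strand is shown because Apoc2 was the lowest of the 9 genes relative to control under eplerenone. All are written 5′ to 3′, and capitals mark matches to 4 motifs searched on both strands.
Apoa4: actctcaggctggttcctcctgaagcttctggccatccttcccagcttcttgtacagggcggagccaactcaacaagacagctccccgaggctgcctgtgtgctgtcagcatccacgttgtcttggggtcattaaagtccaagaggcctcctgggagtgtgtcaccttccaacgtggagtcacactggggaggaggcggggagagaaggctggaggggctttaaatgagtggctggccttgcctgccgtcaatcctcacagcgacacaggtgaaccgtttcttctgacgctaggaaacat
Apoa5: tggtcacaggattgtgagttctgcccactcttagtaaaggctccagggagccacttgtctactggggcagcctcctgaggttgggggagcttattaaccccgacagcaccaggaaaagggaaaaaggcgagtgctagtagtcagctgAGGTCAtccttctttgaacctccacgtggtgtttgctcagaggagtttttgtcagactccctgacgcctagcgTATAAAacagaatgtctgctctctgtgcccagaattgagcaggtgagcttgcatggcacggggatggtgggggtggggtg
Apoc2: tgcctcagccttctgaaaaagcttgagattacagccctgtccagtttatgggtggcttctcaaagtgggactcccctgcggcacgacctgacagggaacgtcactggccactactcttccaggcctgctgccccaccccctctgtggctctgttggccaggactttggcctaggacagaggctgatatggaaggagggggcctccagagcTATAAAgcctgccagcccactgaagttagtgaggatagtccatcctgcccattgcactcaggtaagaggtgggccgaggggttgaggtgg
The motifs were a core bound by hepatocyte nuclear factor 4 alpha (CAAAGTCCA, held by 0.391% of 33469 rat promoter windows), the nuclear receptor half-site AGGTCA (held by 5415 of the windows), the cAMP response element TGACGTCA (1.83%) and the TATA box TATAAA (14.2%). The Apoa5 window held AGGTCA beginning at base -103 and TATAAA at base -30 from the annotated start. The Apoc2 window held TATAAA at base -40. None of the 4 motifs stood in the Apoa4 window or in the 3 Apoe windows, which says only that these letters are not there.

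In cirrhotic livers the RNA of Apoa4, the only DEG among the 9 genes, was 3.76-fold lower than in control. Apoa2 RNA lay far below control in 4 of 5 rats without being a DEG. Apoa1 RNA had a higher fitted level than control and was not a DEG either. Apob, Mttp, Apoc2 and Apoc3 had fitted levels 1.47- to 2.10-fold lower than control without passing the test of both tools, and Apoe varied more among cirrhotic rats than between groups. With eplerenone, none of the genes was a DEG against cirrhosis or against control. Apoa2 then ranged from 554 to 1187 FPM against 875 to 2198 FPM in control. Under TMM scaling every rat given eplerenone had less Apoc2 and Apoc3 RNA than any control, as held for 4.46% of all genes. For Apoc2 the 2 groups all but touched.

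Apob encodes the structural protein of VLDL. Its level was 3393, 3419, 3434 and 4006 FPM in control replicates 2 to 5, 2002, 2677, 1848, 1754 and 3393 FPM in cirrhosis replicates 1 to 5, and 2371, 3492, 1811, 2446 and 2390 FPM in cirrhosis & eplerenone replicates 1 to 5. Of the cirrhotic rats, 4 lay below every control, and cirrhosis replicate 5 lay at the lower edge of the control range. The fitted difference between cirrhosis and control was a log2FC of -0.61 (SE 0.25), which edgeR did not call (adjusted p = 0.0859) and DESeq2 did (adjusted p = 0.0357). The DESeq2 call was lost without control replicate 2, 3, 4 or 5 and without cirrhosis replicate 1, 3 or 4. Without cirrhosis replicate 5 the log2FC was -0.78 and both tools called it, with adjusted p = 0.0222 by edgeR. That rat also had the highest summed hepatocyte markers of its group (208673 FPM, against 150238 to 169266 FPM in the other 4) and the lowest cholangiocyte sum (47.8 FPM, against 109 to 148 FPM), and whether this had a part in the value was not tested.

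Mttp, which loads lipid onto apolipoprotein B, had levels of 180, 230, 217 and 214 FPM in control, 120, 188, 108, 140 and 155 FPM in cirrhosis, and 206, 195, 130, 173 and 130 FPM in cirrhosis & eplerenone. Cirrhosis replicate 2 alone reached into the control range. The log2FC against control was -0.56 (SE 0.20) with adjusted p = 0.0560 by edgeR and 0.0303 by DESeq2. It was called by both tools without cirrhosis replicate 2 (log2FC -0.68, adjusted p = 0.0296 by edgeR) and without cirrhosis replicate 5 (log2FC -0.59, adjusted p = 0.0459 by edgeR). Neither tool called it without control replicate 3, 4 or 5 or without cirrhosis replicate 1, 3 or 4. The count of Mttp relative to Apob in the same library averaged 0.0593 ± 0.00713 (SD, n = 4) in control. It averaged 0.0629 ± 0.0130 (SD, n = 5) in cirrhosis and 0.0679 ± 0.0133 (SD, n = 5) with eplerenone. These ratios overlapped, and cirrhosis and control differed by 0.07 on the log2 scale (p = 0.730 in an exact two-sided permutation test, 0.821 after adjustment over 9 ratio tests).

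Apoa1, the main protein of HDL, had the opposite sign. Its level was 1740, 1046, 3278 and 1678 FPM in control, 2297, 3459, 4084, 3977 and 2391 FPM in cirrhosis, and 864, 1163, 2391, 2058 and 3304 FPM in cirrhosis & eplerenone. Of the controls, 3 lay below all 5 cirrhotic rats, and control replicate 4 lay among them. The log2FC of 0.74 (SE 0.40) between cirrhosis and control was not called by either tool (adjusted p = 0.182 by edgeR and 0.113 by DESeq2). DESeq2 did call it with libraries scaled to total counts, with the replicate number as a block and without control replicate 4. In these fits DESeq2 called 26.1%, 14.7% and 14.8% of all genes higher, in the same order. The ratio of Apoa1 to Apob counts averaged 0.548 ± 0.284 (SD, n = 4) for control. It averaged 1.52 ± 0.688 (SD, n = 5) for cirrhosis and 0.848 ± 0.502 (SD, n = 5) with eplerenone. Cirrhosis exceeded control by 1.48 on the log2 scale, with p = 0.0317 in the exact two-sided permutation test, where 0.0159 is the smallest p that 4 against 5 rats allow. It did not pass after adjustment over the 9 ratio tests (adjusted p = 0.286).

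Apoa2, the other main HDL protein, had levels of 2198, 1468, 1267 and 875 FPM in control, 111, 169, 126, 472 and 1371 FPM in cirrhosis, and 554, 1187, 891, 1173 and 994 FPM in cirrhosis & eplerenone. Cirrhosis replicates 1 to 4 lay below every other library, while replicate 5 lay within the control range. Over all 5 rats the log2FC of cirrhosis against control was -1.69 (SE 0.61), with adjusted p = 0.0617 by edgeR and 0.0171 by DESeq2. Without cirrhosis replicate 5 it was -2.73 and a DEG (adjusted p = 0.00098 by edgeR), so this call was decided by 1 library. The DESeq2 call was lost without control replicate 2 and without cirrhosis replicate 4.

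Apoa4, a lipid-binding apolipoprotein of triglyceride-rich particles and HDL that rodents make in liver and gut, had levels of 413, 662, 545 and 753 FPM in control. In cirrhosis it had 130, 215, 88.7, 112 and 244 FPM, and with eplerenone 167, 333, 69.5, 483 and 263 FPM. All 5 cirrhotic rats lay below all 4 controls, while with eplerenone replicate 4 lay within the control range. Apoa4 fell by 1.91 on the log2 scale in cirrhosis against control (SE 0.44, adjusted p = 0.00913 by edgeR and 0.000172 by DESeq2), and it was a DEG in each of the 14 fits that left out 1 library. The 6 enterocyte markers in the table summed to 0.763 to 3.85 FPM in control and 3.87 to 11.7 FPM in cirrhosis. With eplerenone their sum was 2.03 to 7.12 FPM. The 2 of them that were tested were DEG and higher in cirrhosis, as were 13.4% of all genes. Fabp2 had 0.663 to 3.72 FPM in control and 3.04 to 10.9 FPM in cirrhosis, and Vil1 at most 0.0636 and 1.94 FPM. Alpi was at 0 in every library, and Cdx2, Cdx1 and Lgals4 reached at most 0.0816, 0.202 and 0.530 FPM. The part of such cells in the Apoa4 values was not tested.

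Apoa5, which promotes lipolysis by lipoprotein lipase, had levels of 934, 1250, 1449 and 1687 FPM in control, 1467, 816, 1358, 378 and 734 FPM in cirrhosis, and 1115, 1270, 314, 829 and 970 FPM in cirrhosis & eplerenone. The groups overlapped, and cirrhosis against control gave a log2FC of -0.48 (SE 0.40, adjusted p = 0.382 by edgeR). Apoa4 and Apoa5, neighbours in the cluster whose promoter windows are printed above, thus differed in whether the test was passed, and the difference between the 2 genes was not tested.

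Apoc2 encodes the cofactor that activates lipoprotein lipase. It had 1504, 818, 1532 and 1124 FPM in control, 700, 527, 851, 210 and 673 FPM in cirrhosis, and 246, 818, 221, 679 and 499 FPM in cirrhosis & eplerenone. Cirrhosis replicate 3 lay just above control replicate 3, and the other 4 cirrhotic rats lay below all controls. The log2FC against control was -1.07 in cirrhosis (SE 0.42, adjusted p = 0.0777 by edgeR and 0.0419 by DESeq2). The DESeq2 call was lost without control replicate 2, 4 or 5 and without cirrhosis replicate 1, 2 or 4.

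Apoc3 encodes an inhibitor of lipolysis and of remnant uptake. Its levels were 5665, 5500, 5639 and 4944 FPM in control, 4398, 3060, 4403, 2715 and 3916 FPM in cirrhosis, and 2299, 2971, 2075, 4385 and 4235 FPM in cirrhosis & eplerenone. No rat of either cirrhosis group reached the lowest control. This separation depended on the TMM scaling: per 1000000 of all counted reads, the lowest control had 4187 and the highest rats 4380 (cirrhosis) and 4221 (cirrhosis & eplerenone). The difference between cirrhosis and control was a log2FC of -0.56 (SE 0.26, adjusted p = 0.133 by edgeR and 0.0852 by DESeq2), which neither tool called. The count ratio of Apoc2 to Apoc3 averaged 0.228 ± 0.0566 (SD, n = 4) among controls and 0.155 ± 0.0450 (SD, n = 5) among cirrhotic rats, a difference of -0.59 on the log2 scale that did not pass (p = 0.0794 in an exact two-sided permutation test, 0.321 after adjustment).

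Apoe, the remnant ligand, had 26394, 21471, 24902 and 22942 FPM in control, 38468, 22347, 39864, 17105 and 17998 FPM in cirrhosis, and 16102, 20433, 12880, 17497 and 23116 FPM in cirrhosis & eplerenone. Cirrhosis replicates 1 and 3 lay far above all other libraries and replicates 4 and 5 below all controls, so the mean of 27156 FPM had an SD of 11152 against 2163 in control. The log2FC against control was 0.18 (SE 0.30, adjusted p = 0.674 by edgeR). Cirrhosis replicate 1 also had the highest summed macrophage and Kupffer cell markers of its group (648 FPM against 266 to 441 FPM in the other 4) and cirrhosis replicate 3 the next (441 FPM). Cirrhosis & eplerenone replicate 5, with a larger sum (658 FPM), had Apoe within the control range. The part of those cells in the Apoe values was not tested. Apoe took 2.07% ± 0.215 (SD, n = 4) of all counted reads in control libraries, 2.81% ± 0.983 (SD, n = 5) under cirrhosis and 1.89% ± 0.227 (SD, n = 5) with eplerenone. The other 8 genes together took 1.36% ± 0.125, 1.21% ± 0.0638 and 1.10% ± 0.145 of the reads in the same order.

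**Figure D1:**
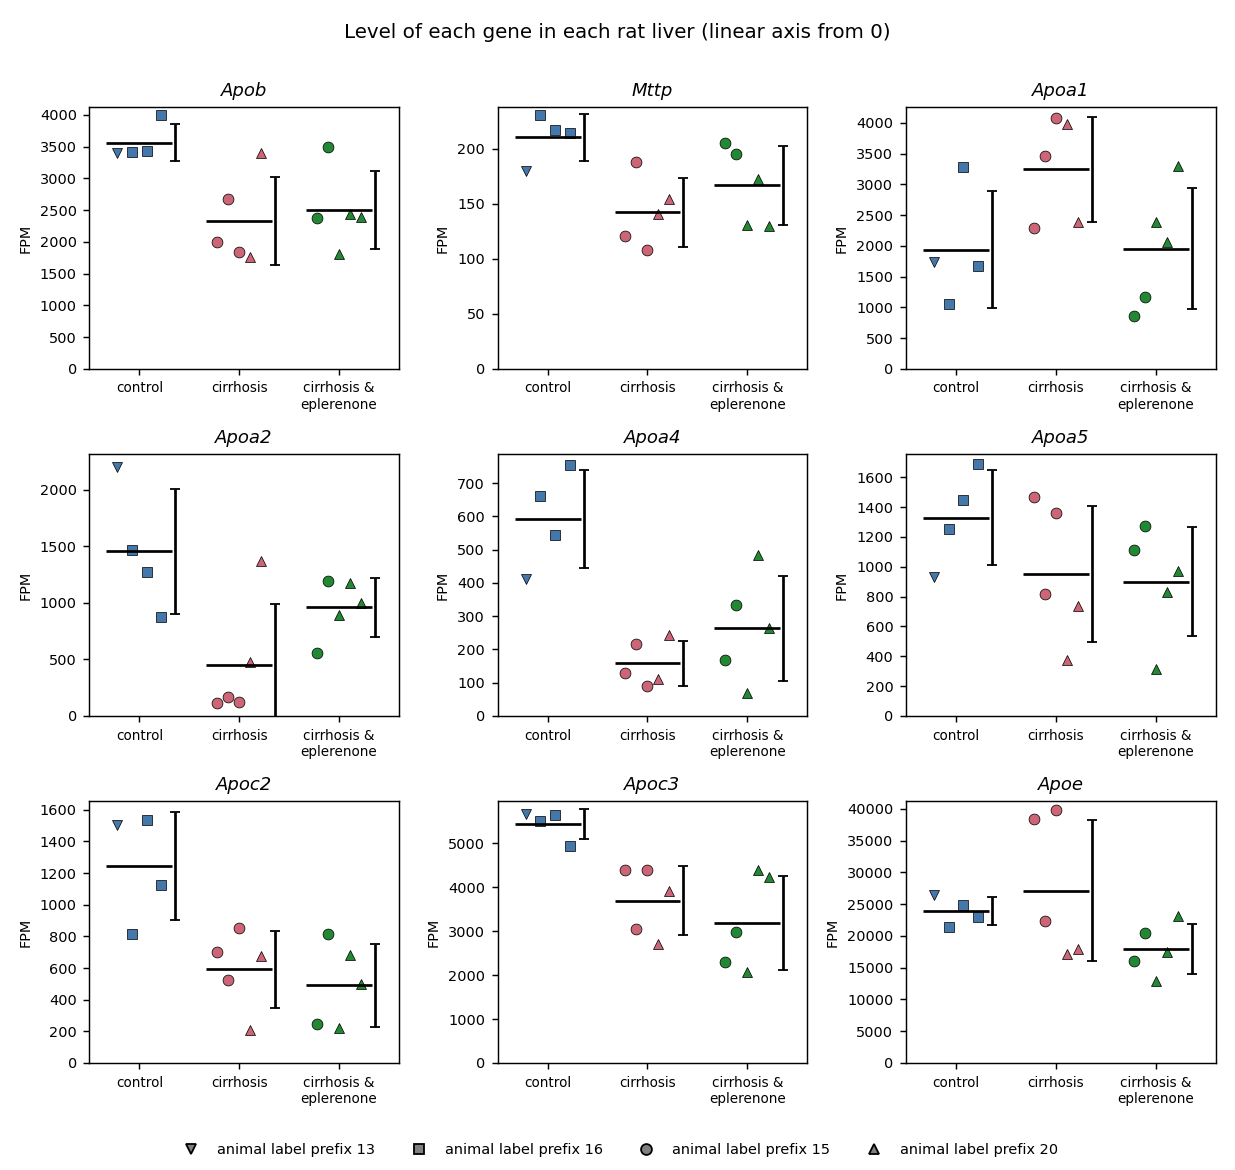
Level in FPM (vertical axis, linear from 0) of the 9 genes in each liver, by group, with the mean (horizontal line) and SD (bar beside it, which for Apoa2 in cirrhosis runs below 0 and is clipped there) and the prefix of the animal label as the symbol. The 5 cirrhotic rats have 88.7 to 244 FPM of Apoa4 against 413 to 753 FPM in control, whereas Apoa2 holds 1 cirrhotic rat at 1371 FPM and 4 between 111 and 472 FPM.

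Read together in cirrhosis against control, 1 of the 9 genes was a DEG and lower (Apoa4), where 6.67% of all genes tested were DEG and lower, and 0 were DEG and higher, where 13.4% of all genes were. By edgeR 6 had an unadjusted p below 0.05, as had 37.1% of all genes. DESeq2 alone called 5 genes lower (Apoa2, Apoa4, Apob, Apoc2 and Mttp), against 9.93% of all genes. Of these 5, only Apoa4 kept its DESeq2 call in every fit that left out 1 library. Groups that did not overlap, with cirrhosis lower, were found for 2 genes (Apoa4 and Apoc3), against 9.03% of all genes. The median log2FC of the 9 genes was -0.56, beside -0.38 for the hepatocyte markers and -0.01 for all genes tested. A negative log2FC was found for 7 of the 9 genes, and equally for 7 of the 9 hepatocyte markers. Among the 9 genes, Apoa1 and Apoe had a positive log2FC. With libraries scaled to their total counts, the median of all genes was 0.28, the signs of the 9 genes were the same, and the calls were not. Apoa4 (-1.62) was still the 1 DEG, where 2.49% of all genes were DEG and lower and 21.2% DEG and higher. DESeq2 alone then called Apoa4 and, as higher, Apoa1 (log2FC 1.05), and no longer called Apoa2 (-1.43), Apob (-0.33), Apoc2 (-0.83) or Mttp (-0.26). Of all genes, DESeq2 called 26.1% higher and 3.93% lower under this scaling.

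**Figure D2:**
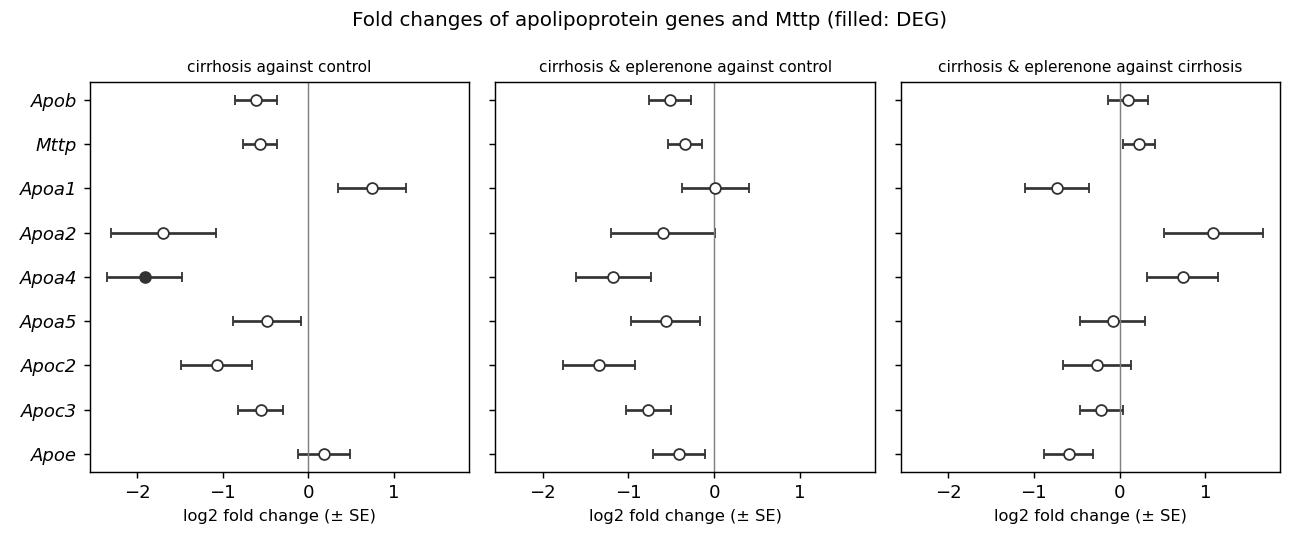
log2 fold change of each gene with its standard error (horizontal axis) in the 3 comparisons, fitted by edgeR over 14 libraries, with DEG as filled points. Apoa4 in cirrhosis against control, at -1.91, is the filled point, and no gene is filled in the comparisons with eplerenone.

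Comparing cirrhosis & eplerenone with cirrhosis asks whether the drug changed these genes in diseased liver. None of the 9 genes was a DEG in either direction, against 0.0139% of all genes higher and 0% lower. At an unadjusted p below 0.05 edgeR gave 0 of the 9, against 14.4% of all genes, and DESeq2 called 0. No gene had groups that did not overlap, which 0.423% of all genes had in the higher and 0.541% in the lower direction. The largest fitted differences were those of Apoa2, with a log2FC of 1.09 (SE 0.58, adjusted p = 0.377 by edgeR), of Apoa4, with 0.74 (SE 0.41, adjusted p = 0.394), of Apoa1, with -0.73 (SE 0.37, adjusted p = 0.364), and of Apoe, with -0.59 (SE 0.28, adjusted p = 0.352). Apob had 0.10 (SE 0.23), Mttp 0.23 (SE 0.19), Apoa5 -0.08 (SE 0.38), Apoc2 -0.27 (SE 0.40) and Apoc3 -0.21 (SE 0.25). Leaving out both cirrhosis replicate 5 and cirrhosis & eplerenone replicate 3, Apoa2 was a DEG with a log2FC of 2.13 (adjusted p = 0.0212 by edgeR) and Apoa4 with 1.18 (adjusted p = 0.0454), in a fit that called 9.15% of all genes. Leaving out either of these libraries alone, neither gene was a DEG (DESeq2 called Apoa2 without cirrhosis replicate 5), so that the calls rest on which rats enter. The choice of the 2 libraries followed no stated rule. Cirrhosis replicate 5 had the highest Apoa2 and Apoa4 of its group, and cirrhosis & eplerenone replicate 3 the lowest Apoa4. Leaving them out thus widened these differences, and the calls of that fit are no test of the drug.

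The differences under eplerenone were also taken within each prefix of the animal labels. Among rats with prefix 15, mean Apoa2 was 135 FPM in cirrhosis (n = 3) and 871 FPM with eplerenone (n = 2), a difference of 2.61 in mean log2 level. Among rats with prefix 20, it was 922 FPM (n = 2, the mean of 472 FPM and of the 1371 FPM of replicate 5) and 1020 FPM (n = 3), a difference of 0.33. Mean Apoa1 was 3280 and 1014 FPM under prefix 15 and 3184 and 2584 FPM under prefix 20, with log2 differences of -1.67 and -0.28. Apoe had log2 differences of -0.84 and -0.02 under the prefixes 15 and 20. The test of the difference itself, an interaction term fitted over 13795 genes, gave -2.48 for Apoa2 (SE 0.64, prefix 20 minus prefix 15), which DESeq2 called (adjusted p = 0.0159) and edgeR did not (adjusted p = 0.344, unadjusted p = 0.00282). edgeR called 0 of the 9 genes and 0% of all genes, with an unadjusted p below 0.05 for Apoa2 and Apoa1. DESeq2 called 1 of the 9 against 1.09% of all genes, and in 6 of the 10 fits that left out 1 library it did not call Apoa2 (without cirrhosis replicates 1, 3 or 5 or cirrhosis & eplerenone replicates 2, 3 or 5). Apoa1 had an interaction of 1.44 (SE 0.56, adjusted p = 0.392 by edgeR and 0.156 by DESeq2).

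In cirrhosis & eplerenone against control, which shares its controls with the first comparison, none of the 9 genes was a DEG, against 4.33% of all genes higher and 0.874% lower. By edgeR 3 had an unadjusted p below 0.05, as had 20.5% of all genes. DESeq2 alone called 2 lower, Apoc2 and Apoc3, against 2.12% of all genes. The same 2 genes had groups that did not overlap, against 4.46% of all genes with the treated group lower, although for Apoc2 the highest treated rat (817.6 FPM) all but touched the lowest control (817.8 FPM). Per 1000000 of all counted reads both genes overlapped with control, with treated rats of up to 756 for Apoc2 and 4221 for Apoc3 and lowest controls of 701 and 4187. That scaling gave 8.89% of all genes DEG and higher and 0.465% DEG and lower. Under it neither gene was a DEG, while DESeq2 alone still called both lower, beside 0.86% of all genes. Apoc2 had a log2FC of -1.34 (SE 0.42, adjusted p = 0.0788 by edgeR and 0.0177 by DESeq2). It was a DEG without cirrhosis replicate 4 (log2FC -1.33, adjusted p = 0.0453 by edgeR) and without cirrhosis & eplerenone replicate 2 (log2FC -1.60, adjusted p = 0.0330 by edgeR). Apoc3 had -0.77 (SE 0.26, adjusted p = 0.101 by edgeR and 0.0226 by DESeq2). DESeq2 called neither gene without control replicate 2 or 4 or without cirrhosis & eplerenone replicate 1 or 3. Without control replicate 3 or 5 it called Apoc2 but not Apoc3. With both cirrhosis replicate 5 and cirrhosis & eplerenone replicate 3 left out, neither gene was called. Apoa4 lay at -1.17 (SE 0.43, adjusted p = 0.134), beside its -1.91 in cirrhosis without the drug, and Apoa2 at -0.60 (SE 0.61, adjusted p = 0.654), beside -1.69. Apoa1 lay at 0.02 (SE 0.39), Apoa5 at -0.56 (SE 0.40), Apob at -0.51 (SE 0.25), Apoe at -0.41 (SE 0.30) and Mttp at -0.34 (SE 0.20).

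In cirrhosis against control Apoa1 had a positive log2FC, while Apoa2, Apoa4 and Apoa5 had a negative one. Of these genes only Apoa4 was a DEG. The counts of Apoa4 and Apoa2, but not of Apoa5, were set against that of Apoa1 within each library. These 2 ratios were chosen after the values were seen and were not tested. Apoa4 relative to Apoa1 ranged from 0.166 to 0.633 in control, from 0.0217 to 0.102 in cirrhosis and from 0.0291 to 0.287 with eplerenone, so control and cirrhosis did not overlap. Apoa2 relative to Apoa1 ranged from 0.387 to 1.40 in control, from 0.0309 to 0.573 in cirrhosis and from 0.301 to 1.02 with eplerenone, with cirrhosis replicate 5 as the one cirrhotic rat in the control range. A ratio within a library shows unequal change of both genes, not which of them changed.

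**Figure D3:**
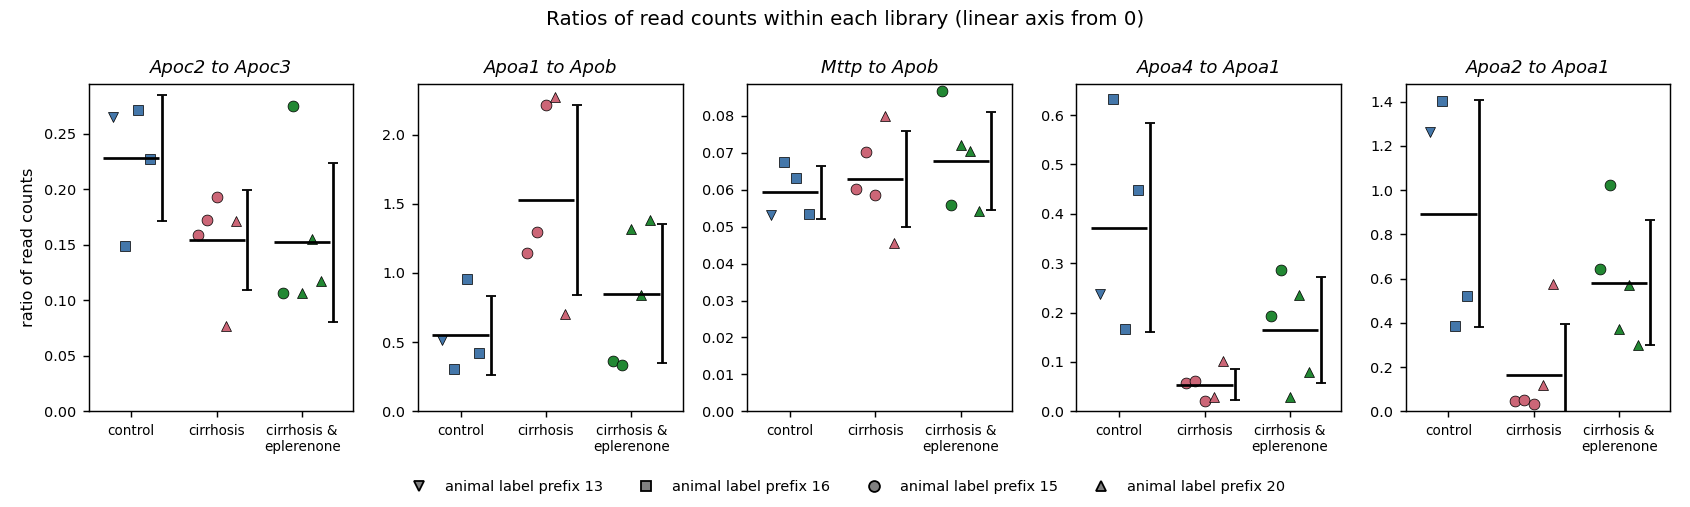
Ratio of the read counts of gene pairs within each library (vertical axis, linear from 0) by group, with the mean (line), SD (bar, clipped at 0 for Apoa2 to Apoa1 in cirrhosis) and label prefix (symbol). Apoa1 to Apob averages 0.548 in control, 1.52 in cirrhosis and 0.848 with eplerenone, and Apoa4 to Apoa1 is at most 0.102 in cirrhosis.

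The genes around the apolipoproteins were taken from lists of 60 further genes of lipoprotein metabolism, of which 56 were tested. In cirrhosis against control 16 were DEG, 3 higher and 13 lower, with a median log2FC of -0.46 beside -0.01 for all genes. Of all genes tested, 13.4% were DEG and higher and 6.67% DEG and lower, shares that stand beside each list below. Of 16 genes of VLDL assembly and secretion 5 were DEG and lower. Among them were Dgat2, the enzyme of the last step of triglyceride synthesis (466 FPM ± 62.8, n = 4, against 223 ± 60.3, n = 5; log2FC -1.06, adjusted p = 0.00728 by edgeR), and A1cf, a partner of the editing enzyme Apobec1 on Apob RNA (21.7 FPM ± 5.50 against 4.60 ± 3.36; log2FC -2.24, adjusted p = 0.0127). Apobec1 itself had a log2FC of 0.31 (SE 0.21, adjusted p = 0.282) and P4hb, the second subunit of the Mttp complex, one of 0.31 (SE 0.23, adjusted p = 0.335). Of 8 genes of HDL formation and remodelling 3 were DEG and lower, among them Bmp1, a protease that removes the propeptide of apolipoprotein A-I, with a log2FC of -0.60 (adjusted p = 0.00963), and Pon1, an esterase carried on HDL, with 1492 FPM ± 131 (n = 4) against 737 ± 237 (n = 5) and a log2FC of -1.02 (adjusted p = 0.0241, called in 11 of the 14 fits with 1 library left out). Abca1, which transfers lipid to apolipoprotein A-I, had -0.32 (SE 0.16, adjusted p = 0.159).

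On the side of particle breakdown and uptake, 1 of 6 genes of lipolysis (higher) and 3 of 6 lipoprotein receptors (1 higher, 2 lower) were DEG. Of all genes, 13.4% were DEG and higher and 6.67% DEG and lower. Lpl, the lipase that Apoc2 activates, rose from 4.16 to 12.7 FPM in control to 26.7 to 95.2 FPM in cirrhosis (log2FC 3.21, SE 0.59, adjusted p = 0.00294 by edgeR). The VLDL receptor Vldlr rose by 3.38 on the log2 scale (SE 0.68, adjusted p = 0.00459), from control levels of 0.127 to 0.636 FPM, near the level of 3 counts. Of 8 other apolipoproteins 1 was a DEG: Clu, clusterin, was higher with a log2FC of 0.74 (adjusted p = 0.0413), a call present in 6 of the 14 fits that left out 1 library (adjusted p up to 0.109).

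Of 12 transcription factors of apolipoprotein genes 3 were DEG and lower, beside 6.67% of all genes. Ppara, the fatty acid sensor, had 7.57 to 10.7 FPM in control and 0.832 to 3.33 FPM in cirrhosis (log2FC -2.03, SE 0.45, adjusted p = 0.00784 by edgeR). Hnf4a had -0.81 (SE 0.24, adjusted p = 0.0290) and Foxa2 -1.33 (SE 0.40, adjusted p = 0.0298), each called in 9 of the 14 fits with 1 library left out, with adjusted p up to 0.0951 and 0.110 in the others. Creb3l3, which acts on Apoa4 among other targets, had -0.56 (SE 0.27, adjusted p = 0.150).

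Against cirrhosis, none of the 56 genes was a DEG with eplerenone, beside 0.0139% of all genes. By edgeR 11 had an unadjusted p below 0.05, beside 14.4% of all genes. DESeq2, which called 0.513% of all genes, called 1 of the 56. That gene was Ppara, whose log2FC was 1.91 (SE 0.44, adjusted p = 0.312 by edgeR and 0.0101 by DESeq2) with levels of 2.19 to 15.3 FPM under the drug. Abca1 had 0.42 (SE 0.15), Hnf4a 0.27 (SE 0.23) and Creb3l3 0.25 (SE 0.26). Against control, 4.33% of all genes were DEG and higher with eplerenone and 0.874% DEG and lower. Of the 56 genes, 2 were DEG and higher, Vldlr (log2FC 3.22) and Lpl (2.56). Another 2 were DEG and lower, Sdc1 (-0.82), a proteoglycan that binds remnants, and Bmp1 (-0.52). Their calls were present in 13 (Vldlr), 11 (Lpl), 5 (Sdc1) and 4 (Bmp1) of the 14 fits with 1 library left out. Without control replicate 5 none of the 4 was called.

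**Figure D4:**
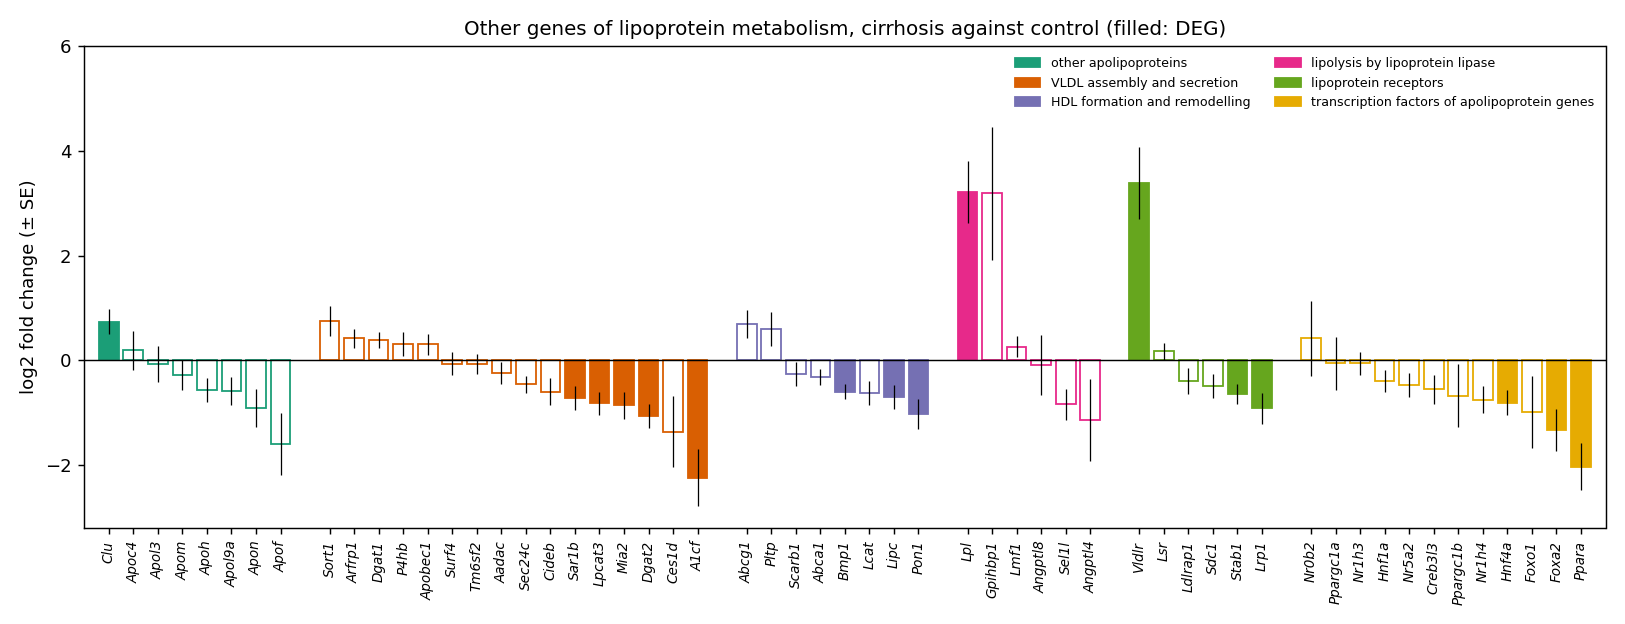
log2 fold change (vertical axis, with standard error) between cirrhosis and control of 56 genes of lipoprotein metabolism that are not among the 9, in 6 lists by colour, with DEG as filled bars. Lpl (3.21) and Vldlr (3.38) are the tallest filled bars, and 13 filled bars point down.

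For 3 of the genes, the protein coding genes with the most similar profile were looked up among 7430 genes with a mean of at least 10 FPM, as Spearman correlations over the 14 libraries, which share the 3 groups and the scaling. Apob was closest to Cldn2 (rho = 0.977), LOC100911854 (0.964), Kynu (0.961), Etfdh (0.955) and RGD1562392 (0.950). Apoa1 was closest to Ppib (0.881), Abracl (0.873), Hip1r (0.859), Cc2d1b (0.842) and Ubd (0.838), and Apoe to Micos13 (0.956), Arl3 and Etfb (both 0.943), and Fahd2a and LOC684270 (both 0.938).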

How the data were processed

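Poly(A) RNA of 15 rat livers was sequenced from both ends with reads of 150 bp, and 14 libraries (4 control, 5 cirrhosis, 5 cirrhosis & eplerenone) were analysed here. According to the submitters' processing notes the authors used HISAT2 2.1.0, rn6, featureCounts 2.0.0, BiomaRt 2.44.4 and Ensembl archive 101, and a read that matched several places was counted at each of them. The deposited values are raw read counts per gene, and 11341 genes had none. Strand use is not given in the sources used here. All 14 sample columns matched a sample label, and groups were taken from these labels.

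Counts were filtered with filterByExpr (smallest count 10), scaled by TMM and fitted over all 3 groups with edgeR 4.0.16 (quasi-likelihood test) and DESeq2 1.42.0 (Wald test) in R 4.3.3. The Benjamini-Hochberg adjustment ran over every gene that passed the filter, and genes with an FDR below 0.05 in both tools were called DEG. The log2FC is that of edgeR, with an SE from its F statistic. Count ratios were compared by exact two-sided permutation tests (scipy 1.17.1). Samples of a group are separate rats. Levels were not corrected for length and are not compared between genes.

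The genes and lists were chosen with earlier results of these data known. From the lists, up to 5 DEG with the largest rise and fall per comparison are named, and in any case Hnf4a, Creb3l3, P4hb, Apobec1, Lpl and Abca1. Some genes that this rule includes are not reported here. Enterocyte markers were named after their values were seen. Alternatives changed the scaling, the filter, the biotypes, the tool and the samples. The fits were checked on simulated counts.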

Additional observations from a re-analysis of the deposited data

Results flagged for a closer look

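In 81 groups of 4 or 5 rats, 7 values stood far from the rest of their group by Dixon's test, which chance alone gives in about 1 of 20 groups. Apoa2 had 1371 FPM in cirrhosis replicate 5, with the other 4 cirrhotic rats between 111 and 472 FPM. Apob had 4006 FPM in control replicate 5, above 3 controls at 3393 to 3434 FPM. The ratio of Apoc2 to Apoc3 counts was 0.275 in cirrhosis & eplerenone replicate 2, above 0.107 to 0.155 in the other 4 rats. Among the other genes of lipoprotein metabolism, Dgat2 was highest in 1 cirrhotic rat (330.4 FPM), Lpl in 1 rat given eplerenone (120 FPM), and Creb3l3 (353 FPM) and Bmp1 (133 FPM) were lowest in 1 control each.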

How the results depend on the processing

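Apoa4 was a DEG in cirrhosis against control under every alternative run. Of the 9 genes, 1 was a DEG there (20.1% of all genes), and 5 were called by DESeq2 alone (27.8%). With both cirrhosis replicate 5 and replicate 3 of cirrhosis & eplerenone removed, 4 were DEG (Apoa2, Apoa4, Apob, Mttp), beside 34.1% of all genes in that fit. With 1 library left out 1 to 4 were DEG, the 4 without cirrhosis replicate 5 (32% of all genes). DESeq2 alone then called 1 of the 9 without cirrhosis replicate 4 (21.3% of all genes). It called up to 5 in cirrhosis against control, in fits that called 26.4% to 37.2% of all genes. Against cirrhosis, eplerenone gave 0 DEG of the 9, and 2 without the same 2 libraries (9.15% of all genes). Against control it gave 0 (5.2% of all genes), 2 by DESeq2 alone (10.6%), and 0 to 1 with 1 library left out (1.49% to 8.86%). DESeq2 alone gave 0 in that comparison without cirrhosis & eplerenone replicate 3 (6.6%) and up to 4 without replicate 2 of that group (15.1%). It gave 0 without the same 2 libraries (8.79%). The interaction with the label prefix called 0 genes by edgeR (0% of all genes) and 1 by DESeq2 (1.09%). With 1 library left out DESeq2 gave 0 (as without cirrhosis replicate 1, 0.499%) to 2. It gave 2 without cirrhosis replicate 2 (14.1%) or 4 (814 of 13992 genes). Of the 56 further genes, cirrhosis against control gave 16 DEG (20.1% of all genes), 29 without the same 2 libraries (34.1%) and 25 by DESeq2 (27.8%). With 1 library left out it gave 6 (without control replicate 5, 9.22%) to 29 (without cirrhosis replicate 5, 32%). Eplerenone against cirrhosis gave 0 (0.0139% of all genes), 10 without the same 2 libraries (9.15%) and 1 by DESeq2 (0.513%). Eplerenone against control gave 4 (5.2% of all genes) and 7 by DESeq2 (10.6%). It gave 2 with no filter (3.31%) and 1 with at least 10 counts in every sample (3.37%). With 1 library left out it gave 0 (without control replicate 5, 1.49%) to 7 (without cirrhosis & eplerenone replicate 2, 8.86%). The cause of these shifts was not tested.

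Fitted differences near 0 changed sign. Without the same 2 libraries this held for Apoa1 in eplerenone against control (-0.059), for Apoa5 (0.039) in eplerenone against cirrhosis, and for the count ratios of Apoc2 to Apoc3 (0.10) and Mttp to Apob (-0.023) in eplerenone against cirrhosis. Under total counts it held for Ppara in eplerenone against control (0.17). With the prefix as a covariate Apoa5 was at 0.16 in eplerenone against cirrhosis, and within prefix 20 the ratio of Apoc2 to Apoc3 was at 0.11. With 1 library left out, the range in eplerenone against cirrhosis was -0.29 to 0.12 for Apoa5, -0.050 to 0.27 for Apob, -0.13 to 0.27 for Pon1, -0.20 to 0.023 for P4hb, -0.76 to 0.094 for Vldlr and -0.30 to 0.044 for the ratio of Apoc2 to Apoc3. In eplerenone against control it was -0.26 to 0.39 for Apoa1 and -0.47 to 0.12 for Ppara. The ratio of Mttp to Apob in cirrhosis against control ranged from -0.025 to 0.18.

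Replicate numbers name different rats, and of 13 same-numbered pairs 4 had deviations correlated above 0.1 (from -0.351 to 0.206), so the numbers do not pair the samples. With the replicate number as a block, 1 of the 56 further genes was a DEG in eplerenone against control, beside 1.86% of all genes. Under that block the number of DEG among the 9 genes was the same in every comparison, but the DESeq2 calls against control were not. They were Apoa1, Apoa2, Apoa4 and Apob in cirrhosis (23.7% of all genes) and Apoa4 and Apoc2 with eplerenone (8.55%). With only the 2 compared groups in the fit, they were Apoa4, Apob, Apoc2, Apoc3 and Mttp in cirrhosis (29.1%). With eplerenone they were then Apoa4, Apoc2 and Apoc3 (12.7%).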
